A study of Mus musculus with 8 samples.

Results

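The contactin and contactin-associated protein genes are described here in cells sorted from 3 mouse organs. The 9 genes Cntn1, Cntn2, Cntn3, Cntn4, Cntn5, Cntn6, Cntnap1, Cntnap2 and Cntnap4 were taken by symbol from a table of 21649 genes, and each of the 9 had a row. They had been proposed with earlier results of these data in view, so their own levels and differences are given as a description. Where it is said that they passed the threshold of the fit over all genes, that describes the fit and is no test of the choice, and no p is given for them. Cells labelled as non-vascular smooth muscle cells had been collected by fluorescence-activated sorting from bladder (3 libraries), intestine (3 libraries) and lung (2 libraries), and their RNA was sequenced. Per the labels, the mice of all 3 groups carried Cspg4-Dre, Acta2-CreERT and an R26-GFP reporter. All 3 groups also received tamoxifen, which activates the CreERT recombinase: for 3 days, 0.75 mg was injected intraperitoneally for each 10 g that a mouse weighed. The recombinases are thus driven from a pericyte gene (Cspg4) and a smooth muscle actin gene (Acta2), and the labels do not say whether the libraries of an organ came from separate mice.

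Contactins are cell surface proteins made of immunoglobulin-like and fibronectin type III domains and held to the membrane by a lipid anchor. Contactin-associated proteins are transmembrane relatives of the neurexins. In myelinated nerve, contactin 1 and contactin-associated protein 1 form the junction between axon and glial loop beside the node, and contactin 2 with contactin-associated protein 2 gathers potassium channels next to it. Contactins 3 to 6 are studied mostly as axon guidance and synapse proteins of the brain. The genes are known from neurons and glia, and nerve fibres and enteric or peripheral glia run through the walls of the bladder, the gut and the airways.

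Values are whole-number normalized read counts, with 1 read worth 0.822 to 1.27 in value depending on the library. The libraries held 9.72 to 13.62 M reconstructed reads and 19206 to 20357 genes above 0. A count of 0 allows for up to 3 reads, or a value of 2.47 to 3.81 depending on the library, and this floor covers counting error only. Acta2, the smooth muscle actin gene behind the Cre driver, was at 2602 ± 308 in bladder (SD, n = 3), 2643 ± 214 in intestine (SD, n = 3) and 2675 ± 62.9 in lung (SD, n = 2). Cspg4, the gene behind the Dre driver, did not match in this way. Its bladder mean was 412, against 4402 for intestine and 4401 for lung (limma adjusted p = 5.43e-08 and 5.44e-08). Myh11, a smooth muscle myosin gene, likewise had a bladder mean of 5041, against 11954 for intestine and 10586.5 for lung (adjusted p = 1.19e-05 and 9.98e-05). The 12 smooth muscle markers summed to 21920 to 26558 in bladder, 40081 to 43270 in intestine and 41437 to 48758 in lung. The 10 fibroblast markers summed to 67286 to 75829, 45051 to 48205 and 34536 to 38795 in the same order, so the libraries also held RNA of genes typical of other cells.

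The contactin genes of highest level were Cntn4 and Cntn6 in bladder. Cntn4, which encodes an axon-associated contactin known from olfactory wiring, stood at 2958, 3270 and 2655 in the bladder libraries, at 0 in each intestine library, and at 73 and 55 in lung. Its tissues did not overlap, with bladder highest, lung far below and intestine at 0. Bladder exceeded lung 46.3-fold (counting interval 38.9 to 54.0, 95%), and lung exceeded intestine at least 23.3-fold against a floor of 3 reads per library. Against that floor the bladder level was at least 1078-fold that of intestine. In bulk libraries like these, fewer cells of a type and less RNA per cell cannot be told apart. Cntn4 lies on chromosome 6 from 105654621 to 106676271 on the plus strand (build mm39, whole annotated gene).

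Cntn6, whose protein is known from cerebellar and cortical neurons, followed at 874, 778 and 875 in bladder. It was at 2, 7 and 0 in intestine and at 12 and 2 in lung. The bladder libraries lay within 842 ± 55.7 (SD, n = 3), while intestine and lung overlapped each other at values of 0 to 12. These rested on 10 reads in intestine and 17 in lung. Bladder was 281-fold above intestine (counting interval 150 to 578) and 120-fold above lung (73.4 to 202.5). Cntn6 lies upstream of Cntn4 on the same strand (chromosome 6, 104469751 to 104840367, mm39).

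**Figure D1:**
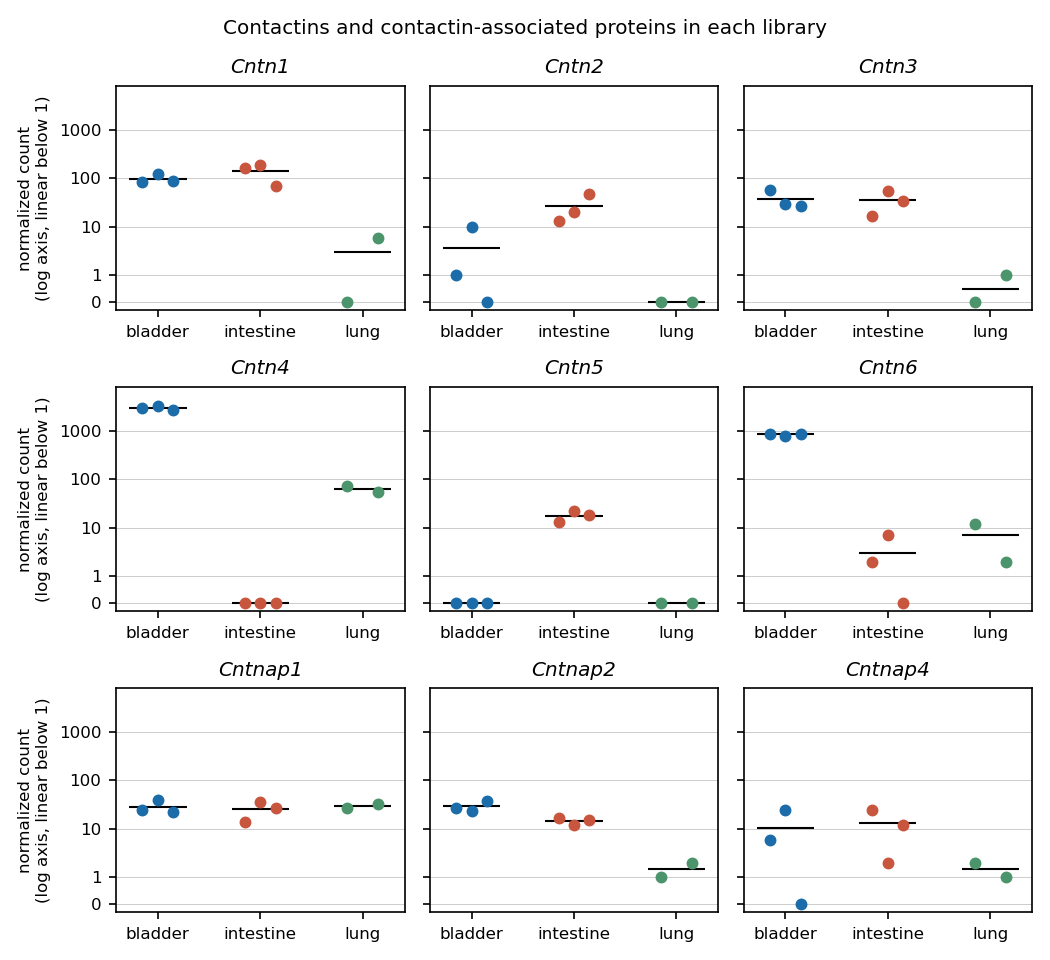
Normalized read count of each gene in each library (logarithmic axis, linear below 1), by tissue, with 1 point per library and a line at the tissue mean. Cntn4 and Cntn6 reach 2655 to 3270 and 778 to 875 in bladder, Cntn5 is above 0 in the 3 intestine libraries and at 0 in the others, and Cntnap1 overlaps between the 3 tissues.

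Because Cntn4 and Cntn6 were the pair that stood high in bladder, the sequence upstream of a RefSeq start site of each is shown (RefSeq promoter table, GRCm38.p6, 7 of the 9 genes matched). Capitals mark CANNTG, the E-box core bound by basic helix-loop-helix proteins, which reads the same on both strands apart from its middle bases. For Cntn4 the 250 bases before the start are given (chr6:106118515-106118764, plus strand). For Cntn6, whose 250-base window overlaps an annotated exon, only a stretch from 50 to 21 bases before the start is given (chr6:104492994-104493023, plus strand). Which bases of that window are exonic was not resolved.
Cntn4: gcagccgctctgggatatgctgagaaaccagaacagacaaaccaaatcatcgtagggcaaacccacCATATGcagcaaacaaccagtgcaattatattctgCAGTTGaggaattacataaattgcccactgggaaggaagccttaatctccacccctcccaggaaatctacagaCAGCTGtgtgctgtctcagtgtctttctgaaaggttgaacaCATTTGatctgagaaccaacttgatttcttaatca
Cntn6: acgggagctttgCACATGTGcctcaagaac

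The Cntn4 window held 4 matches to CANNTG, starting 184, 149, 76 and 35 bases before the start, and the full 250-base window of Cntn6 also held 4. In the Cntn6 stretch 2 of them overlap, which gives the capitals CACATGTG. Of all 32851 promoter windows of 250 bases, 66.2% held at least 1 such match. The other motifs searched on both strands were GATA (in 53.6% of windows, 1 match in each gene), TTTAT (37.3%, 1 in each), TATAAA (12.4%, 0 in each), AGGTGT (11.8%, 0 in each) and the CArG box of smooth muscle genes (1.47%, 0 in each). GC content of the Cntn4 window was 44.4% with 2 CG dinucleotides, against medians of 52.4% and 6 over all windows. A second RefSeq start of Cntn4 lies close by, and its window, which overlaps an annotated exon, had a GC content between 44.4% and 52.4%, 12 CG dinucleotides, 1 match to CANNTG and 0 to GATA and TTTAT. The Cntn4 start lies 441 kb inside the annotated gene, and a table with 1 value per gene does not say from which start the reads came.

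Per kb of exon, Cntn4 was at 349 and Cntn6 at 130 in bladder, against 10.4 for Cntn1, 5.60 for Cntn3, 4.82 for Cntnap1 and 2.86 for Cntnap2. On that scale the bladder level of Cntn4 exceeded those of 84.4% of the 17670 tested genes with a known exon length, and that of Cntn6 65.5%. In lung Cntn4 exceeded 22.8%, and in intestine Cntn1, the highest of the 9 there, exceeded 23.3%. Cntn4 and Cntn6 together made up 94.3 to 95.3% of the summed value of the 9 genes in the bladder libraries, 0 to 2.06% in the intestine libraries, and 73.9% and 57.0% in lung libraries 1 and 2. The sum itself was 4011 ± 295 in bladder (SD, n = 3), 276 ± 58.9 in intestine (SD, n = 3) and 107.5 ± 10.6 in lung (SD, n = 2). Without Cntn4 and Cntn6 it was 207 ± 35.6, 273 ± 55.3 and 36.5 ± 9.19, so the sum of the remaining 7 genes overlapped between bladder and intestine and was lower in both lung libraries.

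Markers of other cell types were summed over whole lists, and these sums did not all follow the bladder pair. The 10 urothelium markers summed to 7982 to 10427 in bladder, 859 to 963 in intestine and 452 to 710 in lung. Krt5 was at 0 in intestine, and Upk2 and Krt5 in lung. Of the 10, 9 were lower and 1 higher in intestine than in bladder by limma. The latter, Krt20, is also an intestinal epithelium marker, with means of 473 in intestine and 165 in bladder. Upk3b is in both the urothelium and the mesothelium list. The 8 mesothelium markers summed to 3559 to 5994, 3626 to 3839 and 566 to 1098, each of the 8 above 0 in every tissue. The 10 leukocyte markers summed to 3402 to 5982, 3067 to 3391 and 2041 to 2166, with Cd3e and Ms4a1 at 0 in bladder. The 10 fibroblast markers were above 0 in all 3 tissues and highest in bladder, as given above. The part of these cells in the Cntn4 and Cntn6 levels was not tested.

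Cntn1, the axonal contactin of the junction beside the node, was at 85, 120 and 89 in bladder, 163, 188 and 70 in intestine, and 0 and 6 in lung. Bladder and intestine overlapped, and both lung libraries lay below the other 6. The fold was 32.7 for bladder over lung (counting interval 15.8 to 83.2) and 46.8 for intestine over lung (23.2 to 120). The gene lies on chromosome 15, 91949046 to 92239848, plus strand (mm39). Per kb of exon it was at 14.9 in intestine, ahead of Cntn3 at 5.20 and Cntnap1 at 4.31. The size of the lung difference rested on which lung library was used: the fitted log2 difference from bladder was −5.21 (SE 0.75), and was −3.80 without lung replicate 1 and −6.61 without lung replicate 2.

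Cntn3, another brain contactin, was at 57, 29 and 27 in bladder, 17, 54 and 34 in intestine, and 0 and 1 in lung. As with Cntn1, bladder and intestine overlapped and lung did not. The ratio of bladder to lung was 75.3 with a counting interval of 15.5 to 3523, since the lung level rested on 1 read. Cntn3 lies on chromosome 6, 102139616 to 102550062, minus strand (mm39).

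Cntn2 and Cntn5 had their highest values in intestine. Cntn2, the partner of contactin-associated protein 2 on myelinated axons, was at 13, 20 and 48 in intestine, 1, 10 and 0 in bladder, and 0 in both lung libraries. The intestine libraries lay above all others, while bladder and lung overlapped at or near 0. Intestine was 7.36-fold above bladder (counting interval 3.70 to 16.6) and at least 10.7-fold above lung. Its fitted intestine-minus-bladder difference of 3.12 (SE 0.86) was 4.10 without bladder replicate 2 and 2.38 without bladder replicate 3, and no longer passed the threshold without intestine replicate 3. Cntn5, a contactin of auditory and other sensory pathways, was at 13, 22 and 18 in intestine and 0 in the 5 bladder and lung libraries. That places intestine at least 4.89-fold above bladder and at least 6.98-fold above lung, from 58 reads in all. Cntn2 lies on chromosome 1, 132437165 to 132470994, and Cntn5 on chromosome 9, 9660896 to 10904780, both on the minus strand (mm39).

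The 19 neuron markers in the table summed to 7133 to 7761 in intestine, 1560 to 1716 in bladder and 1115 to 1876 in lung. All 19 were above 0 in intestine and 16 in bladder (Snap25, Chat and Vip at 0), and Chat was among those at 0 in lung. The 16 glia and Schwann cell markers summed to 6818 to 7336, 6246 to 6621 and 4479 to 4534 in the same order, and Sox10 was at 0 in lung. Pmp22 made up most of the glia sum in bladder, at 4340 of a mean of 6495. Of the 16 glia markers, 12 were higher and 1 lower in intestine than in bladder by limma. In lung 4 were higher and 7 lower than in bladder, and 0 higher and 11 lower than in intestine. The 19 neuron markers gave 16 and 1, 4 and 5, and 0 and 16 in these 3 comparisons. Over all genes tested the shares were 28.7% and 23.3%, 19.2% and 21.8%, and 15.9% and 23.6%. Some markers of both lists had their highest means in lung, such as S100b, Fabp7, Tubb3 and Phox2a. Others had them in bladder, such as Pmp22, Mbp and Rbfox3. The summed neuron and glia markers were thus both highest in intestine, where Cntn2 and Cntn5 were highest. So were other lists by mean sum. The intestinal epithelium list was at 15210 in intestine, 807 in bladder and 468.5 in lung, and the endothelium list at 17517, 6993 and 8330. The mural cell list was at 27245, 11105 and 24486.5, and that of interstitial cells of Cajal at 4586, 1243 and 3439.5. The fibroblast, urothelium, mesothelium and leukocyte sums were highest in bladder, and those of smooth muscle and lung epithelium in lung. The part of nerve or of these other cells in these contactin levels was not tested.

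The contactin-associated genes were low in every tissue. Cntnap1, the partner of contactin 1, was at 24, 39 and 22 in bladder, 14, 35 and 27 in intestine, and 27 and 33 in lung. The 3 tissues overlapped, with fitted log2 differences of −0.20 (95% interval −1.16 to 0.75) for intestine minus bladder, 0.12 (−0.95 to 1.18) for lung minus bladder and 0.32 (−0.75 to 1.39) for lung minus intestine. Cntnap1 overlaps Plekhh3, which stands at 1251 to 2364 on the opposite strand, and Ccr10, and the library kit does not mark strand, so part of its reads cannot be told from theirs. It lies on chromosome 11, 101061349 to 101081550, plus strand (mm39).

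Cntnap2, which holds potassium channels in place along myelinated axons, was at 27, 23 and 38 in bladder, 17, 12 and 15 in intestine, and 1 and 2 in lung. Its tissues did not overlap and ran from bladder over intestine to lung. Bladder was 2.00-fold above intestine (counting interval 1.39 to 2.98) and 19.6-fold above lung (7.70 to 116), with 3 reads behind the lung value. The fitted intestine-minus-bladder difference, −0.94 (SE 0.40), did not pass the threshold of the fit. It did so only with 5 added in place of 1 and with quantile normalization. Cntnap2 spans 2245 kb (chromosome 6, 45036291 to 47281147, plus strand, mm39) and holds a low pseudogene, Rbpj-ps3, on the other strand. Cntnap4, a synaptic protein of inhibitory interneurons, was at 6, 25 and 0 in bladder, 25, 2 and 12 in intestine, and 2 and 1 in lung (chromosome 8, 113296675 to 113609349, plus strand, mm39). Its libraries scattered as widely within bladder and intestine as between them, and all 3 tissues overlapped. The summed value of the 3 contactin-associated genes was 68.0 ± 16.5 in bladder (SD, n = 3), 53.0 ± 3.61 in intestine (SD, n = 3) and 33.0 ± 4.24 in lung (SD, n = 2).

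Across all 18097 genes tested with limma on log2(value + 1), 51.9% passed an adjusted p of 0.05 between intestine and bladder (28.7% higher in intestine, 23.3% lower). Of the 9 genes, all of which had passed the filter of at least 10 in 2 libraries, 2 were past it as higher (Cntn2, Cntn5), 2 as lower (Cntn4, Cntn6), and 5 were not past it. Cntn5 and Cntnap4 reached 10 in only 3 libraries. The background was 41% for lung minus bladder (19.2% higher, 21.8% lower), where 0 of the 9 were past the threshold as higher by limma (0 also at an unadjusted p under 0.05) and 5 as lower (Cntn1, Cntn3, Cntn4, Cntn6, Cntnap2). It was 39.5% for lung minus intestine (15.9% higher, 23.6% lower), where Cntn4 was past it as higher and 5 as lower (Cntn1, Cntn2, Cntn3, Cntn5, Cntnap2). Since earlier results chose the genes, nothing is read from these counts. The comparisons with bladder share the bladder libraries.

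The median fitted log2 difference over the 9 genes was −0.16 for intestine minus bladder, −3.60 for lung minus bladder and −2.66 for lung minus intestine, beside 0.06, 0 and −0.04 over all genes tested. For Cntn4 the 3 differences were −11.53 (SE 0.26), −5.52 (SE 0.29) and 6.01 (SE 0.29). The first was the most negative of the 18097 fitted differences between intestine and bladder, and that of Cntn6, −8.19 (SE 0.76), ranked 16. For genes at or near 0 these values depend on the added constant and are no fold: with 5 added in place of 1, Cntn4 gave −9.21 and Cntn6 −6.82. The Cntn6 difference was −8.93 without intestine replicate 2 and −7.43 without intestine replicate 3. Its lung-minus-bladder difference of −7.08 (SE 0.85) was −8.13 without lung replicate 1 and −6.02 without lung replicate 2.

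**Figure D2:**
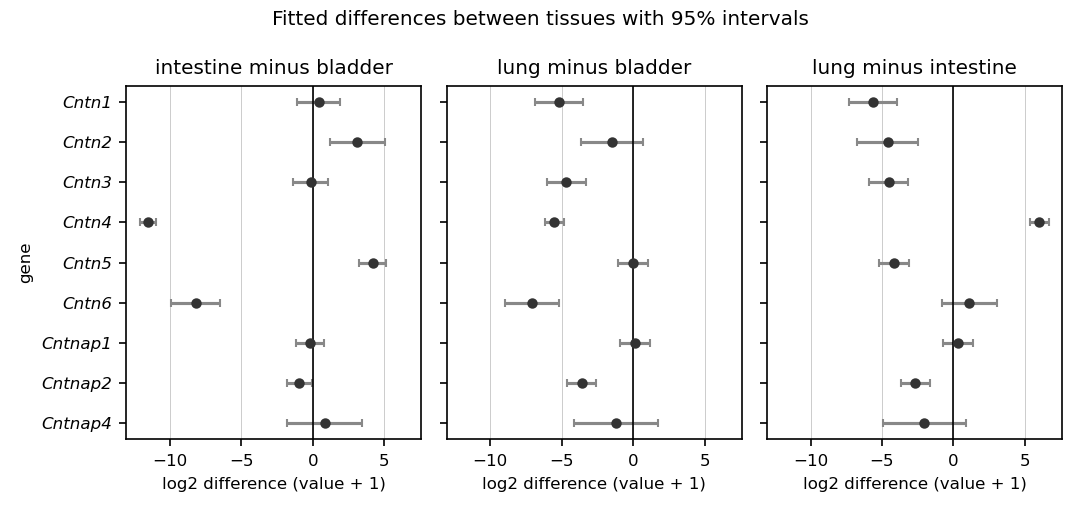
Fitted difference in log2(value + 1) for each gene in the 3 pairs of tissues, with points at the estimate and bars for the 95% interval. Cntn4 lies at −11.53 for intestine minus bladder and at 6.01 for lung minus intestine, and the Cntnap1 and Cntnap4 intervals include 0 in each pair.

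Of the 9 genes, 7 are long. The median annotated span of the genes tested was 19.6 kb, and Cntnap1 (20.2 kb) and Cntn2 (33.8 kb) were near it. The other 7 ranged from 291 kb (Cntn1) to 2245 kb (Cntnap2), each above the span of at least 97.1% of the genes tested. Cntn4, with 7520 reads over the 8 libraries, spans 1022 kb, and Cntn5, with 58 reads, spans 1244 kb, so long genes had both the most and the fewest reads.

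Cntn3, Cntn6 and Cntn4 lie in one stretch of chromosome 6 together with Chl1, an adhesion gene of the L1 family, and the genes around them were read from the same fit (they were chosen by position, after values had been seen). Chl1 lies 743 kb before Cntn6 and 937 kb past Cntn3. It was at 129, 164 and 130 in intestine, 5, 8 and 9 in bladder, and 19 and 4 in lung. Its order is the reverse of that of Cntn6 and Cntn4 in bladder and intestine. Chl1 was higher in intestine than in bladder by 4.12 on the log2 scale (SE 0.51, limma adjusted p = 0.000134) and lower in lung than in intestine by −3.82 (SE 0.58, adjusted p = 0.000686), a value of −4.82 without lung replicate 1 and −2.82 without lung replicate 2.

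On the far side, Il5ra, an interleukin receptor gene 11.05 kb past the end of Cntn4, was at 1, 6 and 0 in bladder and 0 in the other 5 libraries, too low to be tested. Trnt1, a tRNA-processing enzyme gene, was at 836 ± 86.6 in bladder (SD, n = 3), 811 ± 56.0 in intestine (SD, n = 3) and 845 ± 21.2 in lung (SD, n = 2), with limma adjusted p of 0.76, 0.915 and 0.699 over the 3 pairs. Crbn, a ubiquitin ligase adaptor gene, was at 871 ± 64.0, 964 ± 78.3 and 870.5 ± 227, with adjusted p of 0.406, 0.936 and 0.419. Farther out, Pdzrn3 was lower in intestine than in bladder by −1.20 (SE 0.14, adjusted p = 7.69e-05), and Sumf1, a sulfatase-modifying enzyme gene, by −1.15 (SE 0.08, adjusted p = 3.6e-06). Between intestine and bladder, the fitted differences of Trnt1, Crbn, Pdzrn3 and Sumf1 lay between −1.20 and 0.15, against −11.53 for Cntn4. Chl1, between Cntn3 and Cntn6, differed in the other direction. Closest to Cntn4 are Il5ra and Gm15631, both above 0 only in bladder and too low to be tested. Gm15631, a long noncoding RNA gene on the minus strand 0.006 kb before Cntn4, was at 5, 6 and 0 in bladder. Whether the genes of this stretch share a control was not tested. Lrrn1 was lower in lung than in bladder by −3.20 (SE 0.98, adjusted p = 0.0275), a call that ended without lung replicate 2 (−1.16), among other settings. Setmar was higher in lung than in intestine by 1.02 (SE 0.26, adjusted p = 0.012).

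**Figure D3:**
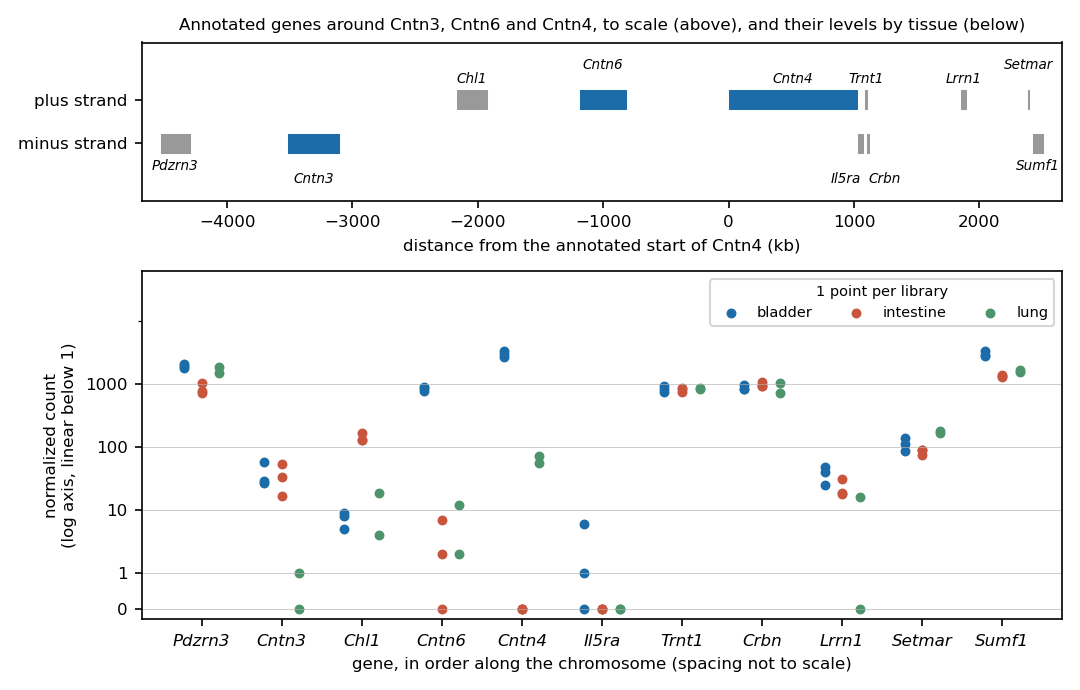
Upper panel: annotated protein-coding genes around Cntn3, Cntn6 and Cntn4 by strand, to scale, as distance from the annotated start of Cntn4 in kb. Lower panel: their normalized read counts (logarithmic axis, linear below 1), 1 point per library. Chl1 is highest in intestine (129 to 164), Cntn6 and Cntn4 in bladder, and Trnt1 and Crbn overlap between the tissues.

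Other members of the contactin-associated family were low. Cntnap5a was at 40, 20 and 11 in intestine, 0, 9 and 0 in bladder and 0 in both lung libraries. It was higher in intestine than in bladder by 3.34 (SE 0.89, limma adjusted p = 0.0113), a difference of 4.44 without bladder replicate 2, and with quantile normalization its adjusted p was 0.0545. It was lower in lung than in intestine by −4.44 (SE 1.00, adjusted p = 0.00663). Cntnap3 was at 9, 3 and 0 in bladder, 13, 10 and 0 in intestine and 0 in lung, with no call, and Cntnap5b was too low to be tested. Cntnap5a, like Cntn2 and Cntn5, thus had its highest values in intestine.

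Binding partners of contactins, genes of the axon-glia junction and the other family genes just given were read from lists of 36 genes in all, 33 of them in the table and 32 tested. Nfasc and Nrcam are in both the partner and the junction list. Of the 32, 18 were higher and 8 lower in intestine than in bladder (median log2 difference 0.79), 10 higher and 13 lower in lung than in bladder (median −0.35), and 6 higher and 13 lower in lung than in intestine (median −0.30). Over all genes tested, 28.7% were higher and 23.3% lower, 19.2% and 21.8%, and 15.9% and 23.6% in the same order. Their medians were 0.06, 0 and −0.04. With the deposited scaling undone the counts of the 32 were 22 and 4, 10 and 6, and 6 and 10. Those over all genes tested were then 8323 and 1926, 7957 and 1897, and 3683 and 3553. The 14 partner genes tested gave 7 higher and 4 lower for intestine minus bladder, and the 18 junction genes 11 and 4. For lung minus intestine the partners gave 4 and 3 and the junction genes 3 and 10.

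L1cam, an axonal adhesion gene, was at 797, 932 and 831 in intestine, 94, 119 and 129 in bladder, and 52 and 28 in lung. The tissues did not overlap, and the differences were 2.90 (SE 0.24, limma adjusted p = 1.05e-05) for intestine minus bladder and −4.44 (SE 0.27, adjusted p = 2.25e-06) for lung minus intestine. Ptprz1, the receptor phosphatase that binds contactin 1, was highest in lung, where L1cam was lowest, at 1347 and 587 in lung, 113, 126 and 95 in intestine, and 30, 0 and 20 in bladder. It was higher in lung than in bladder by 6.68 (SE 1.22, adjusted p = 0.002), a value of 7.60, 5.12 and 7.32 without bladder replicates 1, 2 and 3, and of 6.08 and 7.28 without lung replicates 1 and 2. Its rise from bladder to intestine, 3.69 (SE 1.09, adjusted p = 0.0179), lost its call without any 1 of the 3 intestine libraries, while the estimate stayed at 3.59 to 3.80. That rise was 4.61, 2.13 and 4.33 without bladder replicates 1, 2 and 3. The lung-minus-intestine difference of Ptprz1, 3.00 (SE 1.22), was not called (limma adjusted p = 0.0789). The tissue with the highest Ptprz1 was thus the tissue with the lowest Cntn1. Nfasc, whose glial form meets the contactin 1 complex, was lower in lung than in bladder by −2.69 (SE 0.49, adjusted p = 0.00193) and than in intestine by −2.95 (adjusted p = 0.00115), with 43, 99 and 30 in bladder, 63, 62 and 57 in intestine, and 7 in both lung libraries. App, the amyloid precursor that binds contactin 4, was at 6152 to 6862 in bladder, 4840 to 5184 in intestine and 4528 to 4691 in lung.

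Among the junction genes, Adam23, a transmembrane partner of the secreted Lgi proteins, was at 3586, 3594 and 3731 in bladder, 136, 201 and 258 in intestine, and 337 and 625 in lung. It had the same order as Cntn4, bladder over lung over intestine. It was lower in intestine than in bladder by −4.24 (SE 0.26, limma adjusted p = 1.73e-06) and in lung than in bladder by −2.98 (SE 0.29, adjusted p = 4.54e-05), and its lung-minus-intestine difference of 1.25 lost its call without lung replicate 2. Kcna2, a potassium channel subunit of the zone where contactin 2 sits, was at 502, 439 and 492 in intestine, 586 and 286 in lung, and 25, 5 and 24 in bladder. It was higher than in bladder by 4.92 (SE 0.53, adjusted p = 5.27e-05) in intestine and 4.70 (SE 0.59, adjusted p = 0.000232) in lung, or 4.23 and 4.01 without bladder replicate 2. Kcna1, its partner subunit, was at 66, 63 and 55 in intestine, 19, 10 and 0 in bladder and 7 and 0 in lung. Its difference from bladder of 3.36 (adjusted p = 0.0287) was 4.23 without bladder replicate 1 and lost its call without bladder replicate 3 or without any 1 of the intestine libraries. Its lung-minus-intestine difference of −4.46 (adjusted p = 0.0181) was −5.96 without lung replicate 1 and lost its call without lung replicate 2 or any 1 intestine library. Gldn, a glial protein that gathers sodium channels at nodes, was higher than in bladder by 3.37 (SE 0.78, adjusted p = 0.00522) in intestine and 4.78 (SE 0.87, adjusted p = 0.00199) in lung, or 2.51 and 3.92 without bladder replicate 2. In lung the second was 4.13 without lung replicate 1 and 5.43 without lung replicate 2. Sptbn4, a spectrin of nodes, was at 12 to 53 over the 8 libraries, with limma adjusted p of 0.427, 0.914 and 0.603.

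**Figure D4:**
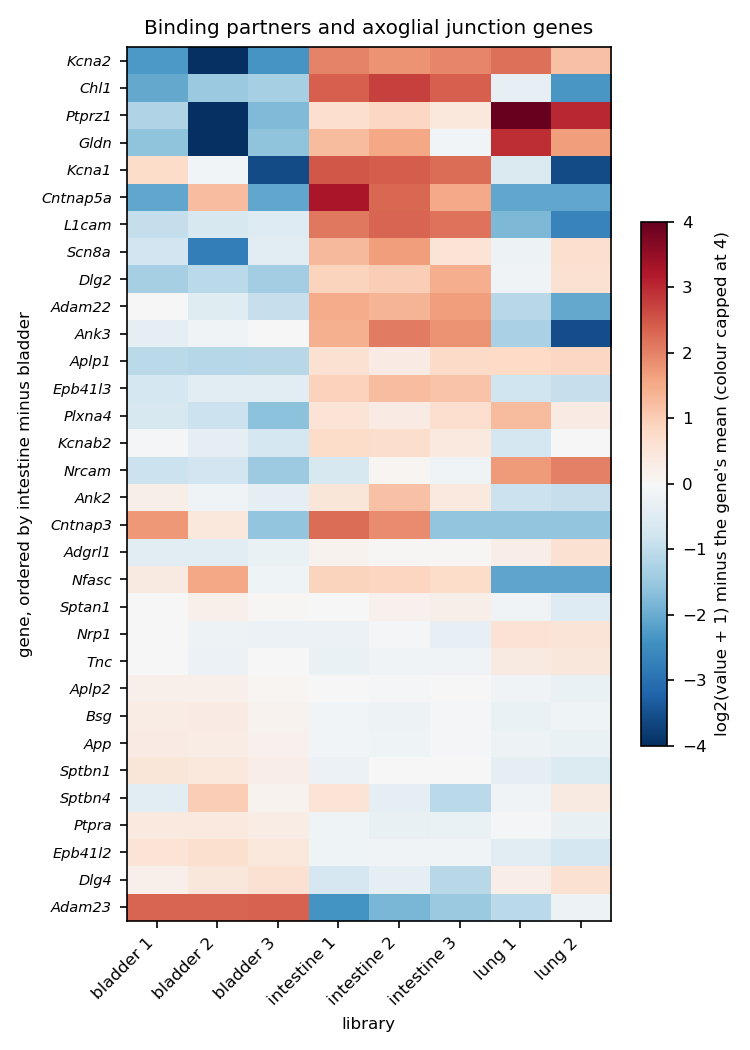
Heat map of the 32 tested partner, junction and family genes (rows, ordered by intestine minus bladder) in the 8 libraries (columns), as log2(value + 1) minus the gene's mean over libraries, with colour capped at 4. Kcna2, Chl1, Ptprz1 and Gldn lie at the top, low in bladder, and Adam23 at the bottom, high in bladder.

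Other immunoglobulin adhesion genes and other neurexin-related genes gave a wider view of the 2 protein families. Of 22 immunoglobulin adhesion genes tested, 10 were higher and 7 lower in intestine than in bladder (median −0.01), 7 higher and 6 lower in lung than in bladder (median −0.20), and 5 higher and 8 lower in lung than in intestine (median −0.44). The shares over all genes tested were 28.7% and 23.3%, 19.2% and 21.8%, and 15.9% and 23.6%. Opcml, which like the contactins is held by a lipid anchor, was at 360, 217 and 259 in bladder, 0, 6 and 17 in intestine, and 43 and 45 in lung. By these values its order matches that of Cntn4. Opcml was lower in intestine than in bladder by −5.77 (SE 0.87, limma adjusted p = 0.000426), or −4.61 and −6.69 without intestine replicates 1 and 3. Its lung-minus-bladder difference of −2.60 (SE 0.97, adjusted p = 0.0583) was not called. That of lung minus intestine, 3.17 (SE 0.97, adjusted p = 0.0283), lost its call without intestine replicate 2, among other settings. Negr1 of the same family was lower than in bladder in both intestine (−2.33, SE 0.28, adjusted p = 9.31e-05) and lung (−3.89, SE 0.31, adjusted p = 1.41e-05), with 677 to 697 in bladder. Cadm3 was likewise lower, by −1.49 (SE 0.29, adjusted p = 0.00211) and −4.04 (SE 0.33, adjusted p = 1.59e-05). Igsf9, at 1465 and 724 in lung and 30 to 68 in bladder, was higher in lung by 4.40 (SE 0.38, adjusted p = 2.39e-05). Nptn, at 2247 to 2577 in each library, and Iglon5, at 2 to 65, had no call.

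Of 12 neurexin-related genes tested (neurexins and their synaptic ligands), 4 were higher and 4 lower in intestine than in bladder (median −0.27), 2 and 5 in lung than in bladder (median −0.84), and 1 and 3 in lung than in intestine (median −0.71). Beside these stand the all-gene shares of 28.7% and 23.3%, 19.2% and 21.8%, and 15.9% and 23.6%. Lrrtm3, a neurexin ligand, was at 321, 323 and 293 in bladder, 23, 37 and 44 in intestine, and 28 and 10 in lung, lower by −3.18 (SE 0.39, limma adjusted p = 0.000126) and −4.13 (SE 0.44, adjusted p = 8.17e-05). The lung difference was −4.83 without lung replicate 1 and −3.43 without lung replicate 2. Its relative Lrrtm1 was at 71, 142 and 127 in intestine, 0, 0 and 8 in bladder and 0 in lung, higher in intestine than in bladder by 5.72 (SE 0.81, adjusted p = 0.000304), or 6.78 without bladder replicate 3. These 2 relatives thus had their highest values in different tissues, as Cntn4 and Cntn5 did. Clstn2 was higher in intestine than in bladder by 4.11 (SE 0.77, adjusted p = 0.00157), or 3.22 without bladder replicate 3. Clstn3 was lower in lung than in intestine by −3.59 (adjusted p = 0.000335). Nlgn1 (3 to 95 over the 8 libraries) and Lrrtm2 (26 to 58) had no call.

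The genes nearest in pattern were those with the smallest root mean square difference of log2(value + 1) over the 8 libraries, each gene centred on its own mean. The 15661 candidates were the genes tested without predicted genes, pseudogenes and the 9 genes themselves. For Cntn4 they were Retnla, a secreted resistin-like gene, at 0.97, F13a1, a coagulation factor subunit, at 1.74, and Tbx18, a T-box transcription factor gene, at 1.88. Retnla was at 766 ± 184 in bladder (SD, n = 3), 0 in each intestine library and 37.0 ± 22.6 in lung (SD, n = 2). For Cntn6 they were Aldh3b2 at 0.98, the urothelial plaque gene Upk1a at 1.01 and Mobp, an oligodendrocyte protein gene, at 1.02. Upk1a was at 2130 ± 209 in bladder (SD, n = 3), 5.00 ± 2.65 in intestine (SD, n = 3) and 5.50 ± 6.36 in lung (SD, n = 2). Cntn4 and Cntn6 lay 2.19 apart, farther than either from its 3 nearest genes.

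For Cntn1 the nearest were Sv2b, a synaptic vesicle gene, at 0.40, Hand2, a transcription factor gene of sympathetic and enteric neurons, at 0.50, and Scml4 at 0.57. For Cntn3 they were Mbp, the myelin basic protein gene, at 0.44, Trhde at 0.47 and Chst4 at 0.54. Mbp and Hand2 are also in the glia and neuron marker lists used above. For Cntnap2 they were Kcnk2, a potassium channel gene, at 0.21, and Efcc1 and Ptprr, both at 0.27. For Cntnap1 they were Sugct at 0.23, Zfp318 at 0.24 and Hemk1 at 0.24, and for Cntn2 Nlrp1b at 0.44, Fibcd1 at 0.56 and H2-Bl at 0.63. The named gene nearest to Cntn5 was Ighv1-12, an antibody gene segment, at 0.16, and that nearest to Cntnap4 was Hcn4 at 0.65, both low genes for which few reads set the pattern. Between the 9 genes themselves the nearest pair was Cntn1 and Cntn3, at 0.91, followed by Cntn3 and Cntnap2 at 0.97.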

How the data were processed

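Per the labels' protocols, RNA of the sorted cells (miRNeasy micro kit, DNase step) was amplified with SMART-Seq v4 from no more than 10 ng. Per the submitters' processing notes, the build was mm39, and DESeq2 1.36.0, STAR 2.7.10a, featureCounts 2.0.4, Trimmomatic 0.39 and Picard 3.0.0 were used, with no role or order stated. Not given in the sources used here are the annotation release and the strand setting. The values the authors deposited were treated as a score, because they are rounded whole numbers spaced like read counts times 1 factor for each library. Dividing by that factor, estimated from the spacing, gave reconstructed reads.

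Python 3.11.15, R 4.3.3 and limma 3.58.1 were used. Tested were 18097 genes that reached a value of 10 in 2 or more libraries (3552 did not), with limma, an intensity trend, a mean per tissue and all 8 libraries in 1 fit, on log2(value + 1). This scale understates changes of low genes. P-values were adjusted by Benjamini-Hochberg over all genes tested, and 0.05 was the threshold. Since no label says that libraries are separate mice, they reflect library-to-library spread alone, which may be technical. The script was tested on simulated data. Exon lengths came from GENCODE M21 (96.8% of gene IDs), another assembly, so none of its coordinates are printed. Counting intervals are exact and cover counting error only, since amplified reads carry no molecular identifiers and are not independent molecules.

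The members, lists and tests were chosen with earlier results of these data known. Named were the 9 genes, up to 4 called genes of largest difference per list (mean of at least 50 in some tissue), up to 2 uncalled genes of highest mean per list, the other family genes, and the 3 genes nearest in pattern to each member, of which those without a symbol are not printed. App and the chromosome 6 neighbours were named outside that rule, after their values were seen. Cntnap5c, Ptprg, Tnr and Nefl were not analysed here. Alternatives were other pseudocounts, filters, scalings, a replicate block, only 2 tissues in the fit, and leaving out each library.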

Additional observations from a re-analysis of the deposited data

How the results depend on the processing

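Counts of genes called and of partner and junction genes called stayed within 1.5 times their value in every alternative run. Leaving out 1 library gave 8183 to 8487 genes called for intestine minus bladder, 6218 to 7738 for lung minus bladder and 5758 to 7880 for lung minus intestine, and 21 to 25, 19 to 23 and 14 to 19 partner and junction genes. The split moved with the scaling: 5185 higher and 4210 lower for intestine minus bladder became 8323 and 1926 once the deposited scaling was undone, and 4161 and 5816 under quantile normalization. For lung minus bladder, 3466 and 3952 became 7957 and 1897 undone and 4562 and 3234 with equal totals. For lung minus intestine, 2882 and 4275 became 5172 and 3516 with quantile normalization and 3683 and 3553 undone. Undoing the scaling moved the median of all genes from 0.06 to 0.45, 0 to 0.48 and −0.04 to 0.07. With it Nptn turned to 0.29 and 0.51 and Trnt1 to 0.35, and quantile normalization turned Nptn (lung minus bladder) to 0.24. Other named genes gained a call with the scaling undone, such as Crbn (intestine minus bladder) and Trnt1 (lung minus bladder). The cause of these changes was not tested.

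Of the 27 differences of the 9 genes, 15 were past the threshold, 0 of these changed sign, and 1 lost its call (Cntn2, intestine minus bladder, with quantile normalization and without intestine replicate 3). Of 46 other called differences, 10 lost their call under some alternative. Deviations of same-numbered libraries correlated at −0.03 to 0.06, and those of differently numbered libraries at −0.07 to 0.07. These values cannot show whether same-numbered libraries came from the same mouse. With the replicate block, 9040, 6786 and 6496 genes and 25, 23 and 19 partner and junction genes were called. Depth limits Cntn2, Cntn5, Cntnap4 and the lung values of Cntn1, Cntn3, Cntn6 and Cntnap2, which rest on few reads.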
